A study of Homo sapiens with 12 samples.

Results

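The genes described here are the membrane-associated progesterone receptor (MAPR) family, made up of PGRMC1, PGRMC2, NENF and CYB5D2, together with the redox partners of cytochrome P450 enzymes, POR, CYB5A, CYB5B and CYB5R3. They were taken by symbol from a fixed list, which was drawn up with earlier results of these data known. All 8 were found by their Ensembl identifiers among the 58735 genes of the count table. Each of the 8 passed the filter on low counts in every comparison.

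RNA from 12 cultures of human endometrial cell lines was sequenced, in 4 groups of 3 libraries. HEC-1A (written HEC1A in the labels) is a line of epithelial-like cells from an endometrial adenocarcinoma, and T-HESC (THESC) is a line of fibroblast-like endometrial stromal cells immortalised with telomerase. Cells of each line received 15 µM AG-205, a small molecule sold as a ligand and inhibitor of PGRMC1, or its solvent DMSO as control, for 32 h. From knockdown experiments, the study concluded that AG-205 acted on its selected genes independently of PGRMC1 and the other MAPR proteins. Its RT-qPCR gave no significant change of PGRMC1 mRNA with AG-205 in untransfected cells of either line. In transfected cells it reported no effect of AG-205 on the MAPR genes, apart from minor changes of PGRMC1 and PGRMC2 in T-HESC. The study also mentions a marginal PGRMC1 increase that was measured occasionally. All 4 groups were grown in medium with fetal bovine serum, and each cell type is represented by a single line, so that line and cell type cannot be told apart. The study states 3 independent culture experiments, without saying which libraries share an experiment.

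PGRMC1 and PGRMC2 are small heme-binding proteins anchored in the endoplasmic reticulum by a single helix, and NENF (neudesin) and CYB5D2 (neuferricin) are relatives that carry the same cytochrome b5-like heme-binding fold. Most cytochrome P450 enzymes of the endoplasmic reticulum receive electrons from NADPH through POR, the P450 oxidoreductase. Some also receive an electron from cytochrome b5, which CYB5R3 reduces with NADH. CYB5A is the cytochrome b5 of the endoplasmic reticulum and CYB5B that of the mitochondrial outer membrane, and the same electron carriers serve squalene epoxidase, heme oxygenase, fatty acid desaturases and several steps of cholesterol synthesis.

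The genes lie on 8 chromosomes (GRCh38, GENCODE 44): PGRMC1 (ENSG00000101856) at chrX:119236245-119244466 on the plus strand, PGRMC2 (ENSG00000164040) at chr4:128269237-128288829 on the minus strand, NENF (ENSG00000117691) at chr1:212432920-212446379 on the plus strand and CYB5D2 (ENSG00000167740) at chr17:4143168-4187310 on the plus strand. POR (ENSG00000127948) lies at chr7:75899200-75986855 on the plus strand, CYB5A (ENSG00000166347) at chr18:74250846-74291973 on the minus strand, CYB5B (ENSG00000103018) at chr16:69398402-69466264 on the plus strand and CYB5R3 (ENSG00000100243) at chr22:42615730-42720870 on the minus strand. All are protein-coding. The strand setting of the counting is not given in the sources used here, which matters for CYB5D2, since 4.81% of its exon length overlaps ANKFY1 on the opposite strand. The processed pseudogenes of NENF and CYB5A held at most 1 count in any library.

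Promoter windows from RefSeq (GRCh38.p14, 250 bases before to 50 bases after an annotated start) were available for 6 of the 8 genes, and those of POR and NENF were not used here. The windows of the genes on which the results below turn are shown 5′ to 3′ on the strand of the gene. CYB5B and CYB5D2 rose with AG-205 in HEC-1A, PGRMC1 encodes the stated target of AG-205, and PGRMC2 and CYB5R3 differed most upwards between the lines. Capitals mark matches on either strand to the sterol regulatory element TCACNCCAC, the NF-Y box CCAAT, the GC box GGGCGG and the core of the antioxidant response element TGACNNNGC, and matches that overlap run together.
CYB5B, chr16:69424369-69424668, plus strand: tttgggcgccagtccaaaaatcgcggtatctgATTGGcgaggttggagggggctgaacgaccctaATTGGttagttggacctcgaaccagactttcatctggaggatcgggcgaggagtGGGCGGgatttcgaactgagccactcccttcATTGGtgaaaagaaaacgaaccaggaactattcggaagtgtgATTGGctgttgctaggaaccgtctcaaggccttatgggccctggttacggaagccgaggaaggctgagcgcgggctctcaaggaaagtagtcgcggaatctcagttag
CYB5D2, chr17:4142918-4143217, plus strand: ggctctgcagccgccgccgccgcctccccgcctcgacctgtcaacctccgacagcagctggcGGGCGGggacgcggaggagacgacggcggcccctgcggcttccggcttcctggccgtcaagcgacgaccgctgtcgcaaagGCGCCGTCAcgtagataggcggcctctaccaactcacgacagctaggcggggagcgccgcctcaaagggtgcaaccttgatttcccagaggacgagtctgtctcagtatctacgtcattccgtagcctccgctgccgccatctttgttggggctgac
PGRMC1, chrX:119236035-119236334, plus strand: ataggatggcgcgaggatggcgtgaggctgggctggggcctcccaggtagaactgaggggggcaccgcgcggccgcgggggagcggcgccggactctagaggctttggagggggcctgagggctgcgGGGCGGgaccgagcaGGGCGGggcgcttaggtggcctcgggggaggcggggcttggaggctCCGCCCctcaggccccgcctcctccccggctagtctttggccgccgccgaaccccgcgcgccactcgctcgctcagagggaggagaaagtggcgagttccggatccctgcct
PGRMC2, chr4:128287764-128288063, minus strand: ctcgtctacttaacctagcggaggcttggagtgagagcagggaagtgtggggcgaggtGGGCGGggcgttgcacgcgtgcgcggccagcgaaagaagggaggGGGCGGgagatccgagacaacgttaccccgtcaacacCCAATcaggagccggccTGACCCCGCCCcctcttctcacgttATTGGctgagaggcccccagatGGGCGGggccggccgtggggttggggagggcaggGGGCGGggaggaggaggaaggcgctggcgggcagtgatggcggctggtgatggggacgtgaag
CYB5R3, chr22:42649343-42649642, minus strand: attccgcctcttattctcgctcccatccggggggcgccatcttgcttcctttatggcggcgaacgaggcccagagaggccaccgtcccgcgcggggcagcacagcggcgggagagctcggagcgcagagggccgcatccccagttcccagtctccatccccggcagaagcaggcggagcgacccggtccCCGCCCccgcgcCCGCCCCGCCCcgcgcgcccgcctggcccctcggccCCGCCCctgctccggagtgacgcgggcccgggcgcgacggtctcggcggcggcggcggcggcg

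The CYB5B window held 4 NF-Y boxes, all in the reverse orientation, and 1 GC box. That of PGRMC2 held 2 NF-Y boxes, 5 GC boxes and 1 antioxidant response core, which overlaps a GC box, whereas that of PGRMC1 held 3 GC boxes and the CYB5R3 window shown held 4. The CYB5D2 window held 1 GC box and 1 antioxidant response core. The table lists 9 windows for the 6 genes, 3 of them for CYB5R3 and a pair that overlaps for CYB5D2. Of these 9 windows, 7 held a GC box, 4 an NF-Y box, 4 an antioxidant response core and 0 the sterol regulatory element, where the shares among all 35116 windows of the RefSeq table were 45.0%, 34.6%, 13.3% and 1.13%. For CYB5R3 the NF-Y box and the antioxidant response core lay in the windows not shown. These matches are letters found in a window, not measured sites, and the absence of a match says only that these letters are not in the window.

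Total counts ranged from 7168542 to 15178276 per library. The lines matched their labels: all 12 epithelial markers looked at exceeded 1 CPM in every HEC-1A library, where CPM are counts scaled to a common library total, with EPCAM between 205 and 256 CPM, while EPCAM stayed at or below 0.64 CPM in T-HESC. Not all 12 set the lines apart, since 5 or 6 of them exceeded 1 CPM in each T-HESC library. KRT19 was at 103 to 110 CPM in T-HESC with DMSO and at 96.7 to 104 CPM in HEC-1A with DMSO, and KRT18 was at 111 to 188 and 327 to 388 CPM. With AG-205 in T-HESC, KRT19 was at 177 to 249 CPM and KRT18 at 25.9 to 99.3 CPM, and 0 of the 6 epithelial markers tested there passed in edgeR's test, these 2 having an unadjusted p under 0.05. All 12 stromal markers exceeded 1 CPM in every T-HESC library, and in HEC-1A VIM was at most 2.63 CPM and no stromal marker above 8.39 CPM. In HEC-1A the summed epithelial markers were 2030 to 2250 CPM with DMSO and 2890 to 2980 CPM with AG-205, and 5 of the 12 (KRT8, KRT19, CLDN3, CLDN4 and CLDN7) passed the test as higher with AG-205. Stromal markers summed to 22.6 to 30.2 CPM in HEC-1A, with 1 or 2 of the 12 at 0. The part of the epithelial shift in the results below was not tested. In bulk RNA of this kind, fewer cells and less RNA per cell cannot be told apart. T-HESC AG-205 replicate 1 stood apart, with a root mean square difference of 0.885 on the log2 scale from the other 2 libraries of its group, against 0.218 to 0.676 for the remaining 11 libraries. T-HESC results of the 8 genes are therefore given with and without it. Within HEC-1A, AG-205 replicate 3 differed most, at 0.381 against 0.218 to 0.281 for the other libraries of the line, and had the lowest total count. Without that library 4014 of all 14461 genes passed in HEC-1A, against 1643 of 14122 with it, and 3 of the 8 genes passed in both fits.

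**Figure D1:**
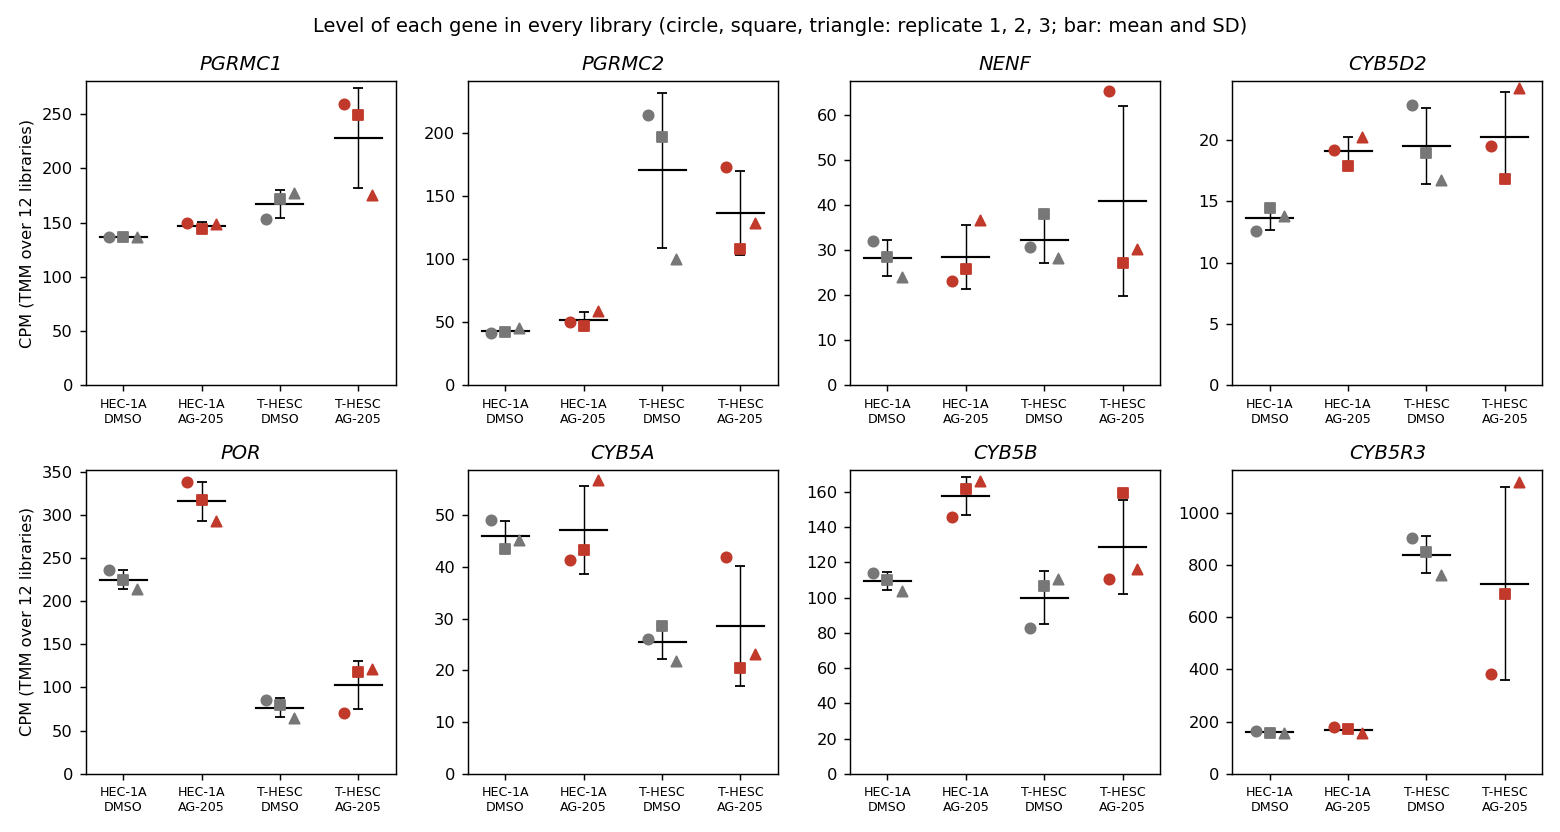
Level of each of the 8 genes in every library (vertical axis, CPM after TMM scaling over 12 libraries; horizontal axis, the 4 groups with DMSO in grey and AG-205 in red). Bars are the mean and SD of 3 libraries. POR, CYB5B and CYB5D2 stand higher with AG-205 than with DMSO in HEC-1A, and CYB5R3 ranges from 381.7 to 1117 CPM among the T-HESC AG-205 libraries.

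In HEC-1A, 3 of the 8 genes rose with AG-205, CYB5B 1.44-fold, POR 1.41-fold and CYB5D2 1.40-fold, and none fell. A gene was taken to pass at an adjusted p under 0.05 in the quasi-likelihood test of edgeR, adjusted by the Benjamini-Hochberg method over all 14122 genes tested. For comparison, 11.6% of all genes passed, 7.35% as higher. None of the 3 passed the additional limit of a log2 fold change above 1 that the study used, which 2.78% of all genes did. The median log2 fold change was 0.188 over the 8 genes and 0.00618 over all genes.

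PGRMC1, the stated target of AG-205, was measured at 136.4, 136.4 and 136.8 CPM in the HEC-1A DMSO libraries and at 149, 144 and 149 CPM in the AG-205 libraries. The groups did not overlap, yet the difference was small: the log2 fold change was 0.11 (SE 0.0831, 95% interval -0.07 to 0.29, adjusted p = 0.44 by edgeR). The interval leaves room for a rise of up to 1.22-fold. PGRMC2, its closest relative, which also binds heme, was measured at 41.6, 42.4 and 45.2 CPM with DMSO and at 50.2, 46.6 and 58.8 CPM with AG-205. All AG-205 libraries lay above all DMSO libraries, but the log2 fold change of 0.27 (SE 0.108, 95% interval 0.03 to 0.50) did not pass after adjustment (adjusted p = 0.139 by edgeR). NENF, a secreted member of the family, was measured at 32.1, 28.5 and 24.1 CPM with DMSO and at 23.1, 25.9 and 36.5 CPM with AG-205. Its groups overlapped fully, and its log2 fold change was -0.00 (SE 0.165, 95% interval -0.36 to 0.36, adjusted p = 0.997 by edgeR).

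CYB5D2, the remaining member of the family, had 12.6, 14.5 and 13.8 CPM in the HEC-1A DMSO libraries and 19.2, 17.9 and 20.2 CPM in the AG-205 libraries. The groups were well apart, and the rise passed with a log2 fold change of 0.48 (SE 0.120, 95% interval 0.22 to 0.74, adjusted p = 0.0215 by edgeR). It was the least abundant of the 8 genes, with 153 to 281 counts per HEC-1A library. The call was lost, at adjusted p of 0.0625, 0.105, 0.0648 and 0.091 in edgeR's test, without AG-205 replicate 1 and without DMSO replicate 1, 2 or 3, with log2 fold changes between 0.42 and 0.53. In those fits 678 to 1160 of all genes passed, against 1643 with all libraries of the line. ANKFY1, which overlaps CYB5D2 on the opposite strand, had 206 to 1282 counts per library. The study's RT-qPCR in transfected HEC-1A, by contrast, reported no effect of AG-205 on CYB5D2.

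POR, the electron donor of most microsomal P450 enzymes, had 236, 225 and 214 CPM in the HEC-1A DMSO libraries and 338, 318 and 293 CPM in the AG-205 libraries. Every AG-205 library lay above every DMSO library, and the log2 fold change was 0.49 (SE 0.0919, adjusted p = 0.00469 by edgeR), a 1.41-fold rise with a 95% interval of 1.23-fold to 1.62-fold. CYB5R3, the NADH-dependent reductase of cytochrome b5, had 165, 156 and 155 CPM with DMSO and 179, 171 and 154 CPM with AG-205. Its groups overlapped, and the log2 fold change of 0.09 (SE 0.0896, 95% interval -0.11 to 0.28) did not pass (adjusted p = 0.585 by edgeR).

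The cytochromes b5 themselves moved unequally in HEC-1A. CYB5B had 114, 110.3 and 104 CPM with DMSO and 146, 162 and 166 CPM with AG-205, so that the groups were apart. It rose 1.44-fold, with a 95% interval of 1.26-fold to 1.66-fold (log2 fold change 0.53, SE 0.0922, adjusted p = 0.00303 by edgeR). CYB5A had 49.1, 43.4 and 45.2 CPM with DMSO and 41.3, 43.3 and 56.8 CPM with AG-205. Its groups overlapped, and its log2 fold change was 0.03 (SE 0.126, 95% interval -0.24 to 0.31, adjusted p = 0.907 by edgeR). Without AG-205 replicate 3, its high value, it was -0.13. The difference between CYB5B and CYB5A was not tested as such. Without DMSO replicate 3 of HEC-1A, CYB5B alone of the 8 genes passed, and POR then had an adjusted p of 0.0538 in edgeR's test. In that fit 678 of all 14525 genes passed, against 1643 of 14122 with all libraries of the line.

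Groups did not overlap for 5 of the 8 genes in HEC-1A (PGRMC1, PGRMC2, CYB5D2, POR and CYB5B), in each case with AG-205 higher, against 16.6% of all genes not overlapping in that direction and 31.4% in either. All 12 libraries were also fitted together, so that the wider spread of T-HESC entered the test. In that fit 0 of the 8 genes passed in HEC-1A, and 154 of all 16132 genes did, against 1643 of 14122 in the fit of HEC-1A alone. The log2 fold changes stayed at 0.53 for CYB5B, 0.49 for POR and 0.48 for CYB5D2.

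In T-HESC, none of the 8 genes passed, and 0.08% of all 13753 genes tested did. The biological coefficient of variation was 33.6% in T-HESC and 10.1% in HEC-1A, and before adjustment 5.38% of all T-HESC genes (740) had a p under 0.05. No member did in edgeR's test, and 0 of 8 passed in DESeq2 as well. The adjusted p was 0.993 for each of the 8 genes in edgeR's quasi-likelihood test.

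PGRMC1 had 153, 172 and 177 CPM in the T-HESC DMSO libraries and 259, 249 and 175 CPM in the AG-205 libraries. Replicates 1 and 2 with AG-205 lay above all DMSO libraries and replicate 3 lay among them. The log2 fold change was 0.43 with a 95% interval of -0.12 to 0.98, which includes no change and a rise of 1.98-fold, and it was 0.32 without replicate 1. PGRMC2 had 214, 197 and 100.4 CPM with DMSO and 173, 108 and 128 CPM with AG-205. The DMSO libraries of PGRMC2 spread more widely than the distance between the group means, and the log2 fold change was -0.33 (95% interval -1.12 to 0.46). Without AG-205 replicate 1 it was -0.56 (SE 0.324, adjusted p = 0.67 by edgeR).

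NENF had 30.7, 38.0 and 28.2 CPM with DMSO and 65.2, 27.1 and 30.2 CPM with AG-205 in T-HESC, where the high value is that of AG-205 replicate 1. Its log2 fold change was 0.33 with all libraries (95% interval -0.52 to 1.19) and -0.20 without that replicate. CYB5D2 had 22.9, 19.0 and 16.8 CPM with DMSO and 19.6, 16.9 and 24.3 CPM with AG-205, with overlapping groups and a log2 fold change of 0.03 (95% interval -0.54 to 0.61), or 0.04 without replicate 1.

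POR had 85.7, 79.9 and 64.4 CPM in the T-HESC DMSO libraries and 70.8, 118 and 121 CPM in the AG-205 libraries. AG-205 replicates 2 and 3 lay above all DMSO libraries and replicate 1 lay between them. The log2 fold change was 0.41 (95% interval -0.20 to 1.02) and became 0.61 (SE 0.186, adjusted p = 0.316 by edgeR) without replicate 1. CYB5B had 82.7, 106.7 and 110.8 CPM with DMSO and 110.6, 159.7 and 116.4 CPM with AG-205. Its lowest AG-205 library and highest DMSO library were level, and lay just apart when the T-HESC libraries were scaled on their own (98.2 and 96.3 CPM). The log2 fold change was 0.35 (95% interval -0.20 to 0.90) and 0.44 without replicate 1.

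CYB5A had 26.05, 28.5 and 21.9 CPM with DMSO and 41.9, 20.5 and 23.2 CPM with AG-205, again with AG-205 replicate 1 as the high value, and its log2 fold change turned from 0.15 to -0.25 without that library. CYB5R3 spread widely. It had 904, 849.8 and 763 CPM with DMSO and 382, 688 and 1117 CPM with AG-205, where replicate 1 was the lowest of the 6 libraries and replicate 3 the highest. Its log2 fold change was -0.22 (95% interval -1.09 to 0.64) with all libraries and 0.08 without replicate 1. Leaving out that library left 0 of 8 genes past the test, while 72 genes of all passed instead of 11.

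**Figure D2:**
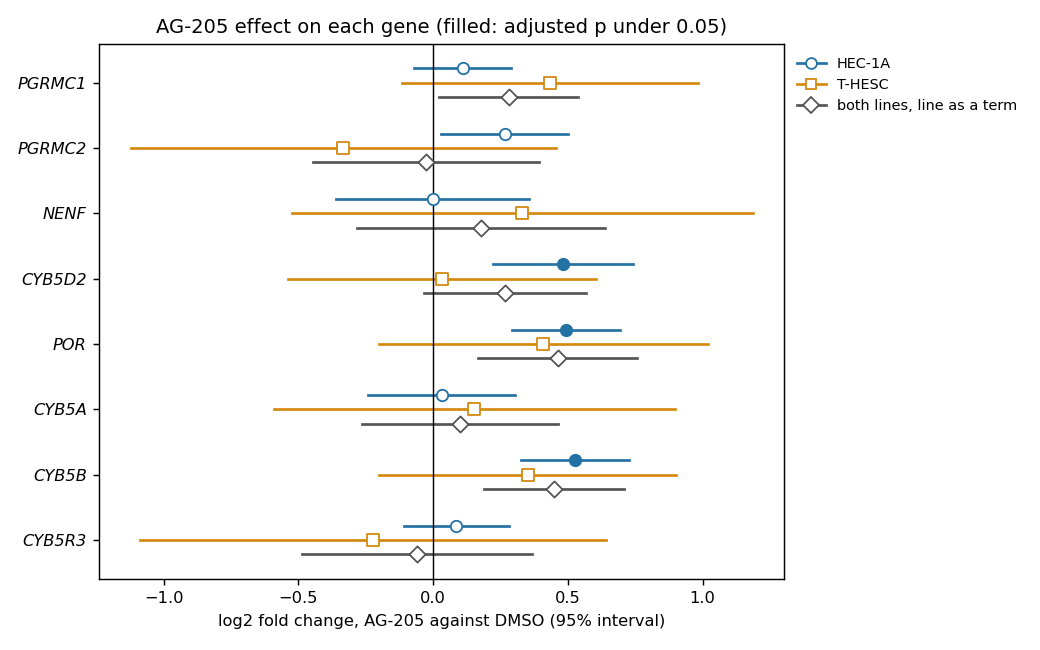
Log2 fold change of each of the 8 genes, AG-205 against DMSO (horizontal axis), with its 95% interval, in HEC-1A (circles), in T-HESC (squares) and over both lines with line as a term (diamonds). Filled symbols passed at an adjusted p under 0.05: these are CYB5D2, POR and CYB5B in HEC-1A, and the T-HESC intervals all include 0.

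The effect of AG-205 did not pass as different between the lines for any of the 8 genes (edgeR's quasi-likelihood test of the interaction over 16132 genes, where 0.174% passed, DESeq2 also 0 of 8). The largest estimate was that of PGRMC2, with a log2 difference, T-HESC minus HEC-1A, of -0.59 (SE 0.365, 95% interval -1.38 to 0.20, adjusted p = 0.908 by edgeR). For CYB5D2 the difference was -0.44 (95% interval -0.995 to 0.12), for PGRMC1 0.34 (-0.16 to 0.83), for CYB5B -0.16 (-0.69 to 0.37) and for POR -0.06 (-0.68 to 0.55). Without T-HESC AG-205 replicate 1 the differences were -0.80 for PGRMC2 (SE 0.336, adjusted p = 0.397 by edgeR), -0.41 for CYB5D2, 0.24 for PGRMC1, -0.06 for CYB5B and 0.15 for POR. Again 0 of the 8 passed, and 86 of all 16301 genes did. The difference changed sign for POR and also for NENF (0.33 to -0.18), CYB5A (0.12 to -0.26) and CYB5R3 (-0.29 to 0.02). For POR the interval with all libraries spans a T-HESC effect from 0.625 to 1.47 times that in HEC-1A. Before adjustment, p was under 0.05 for 0 of the 8 genes here and for 6.35% of all genes (1025).

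With the effect averaged over the lines, which uses the same 12 libraries as the comparisons above, 0 of the 8 genes passed and 1.52% of all genes did. CYB5B had a log2 fold change of 0.45 (SE 0.121, 95% interval 0.19 to 0.71, adjusted p = 0.0938 by edgeR), POR one of 0.46 (SE 0.137, 95% interval 0.17 to 0.76, adjusted p = 0.135 by edgeR) and PGRMC1 one of 0.28 (SE 0.120, 95% interval 0.02 to 0.54, adjusted p = 0.349 by edgeR). These 3 had an unadjusted p under 0.05, as did 12.4% of all genes. Without T-HESC AG-205 replicate 1, POR (log2 fold change 0.56, adjusted p = 0.00409 by edgeR) and CYB5B (0.50, adjusted p = 0.0182 by edgeR) passed, and DESeq2 with all libraries called CYB5B (0.43, DESeq2 adjusted p = 0.0202). Of all genes, 635 of 15730 passed without that library and 657 of 16654 in DESeq2, against 238 of 15654 in edgeR with all libraries.

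The largest differences among the 8 genes were those between the lines, taken from the DMSO libraries that also served as controls above. With DMSO, 6 of the 8 differed between T-HESC and HEC-1A, against 72.1% of all 14789 genes tested, so that the share is close to that of all genes. CYB5R3 was 5.25-fold and PGRMC2 3.93-fold higher in T-HESC, and POR was at 0.339 of its HEC-1A level. These 3 also passed the limit of a log2 fold change beyond 1 in either direction, as 44.6% of all genes did.

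CYB5R3 had 155 to 165 CPM in the HEC-1A DMSO libraries and 763 to 904 CPM in those of T-HESC (log2 fold change 2.39, SE 0.1002, adjusted p = 1.13e-07 by edgeR). Its annotation overlaps a same-strand gene, ENSG00000289517, over 9.93% of its exon length, which was not in the count table. POR, by contrast, had 214 to 236 CPM in HEC-1A and 64.4 to 85.7 CPM in T-HESC (log2 fold change -1.56, SE 0.120, adjusted p = 4.94e-06 by edgeR). Expressed per kilobase of the Ensembl canonical transcript, the ratio of CYB5R3 to POR was 0.582 to 0.608 in HEC-1A with DMSO and 8.85 to 9.94 in T-HESC with DMSO, so that the reductases that feed cytochrome b5 and the P450 enzymes stood in opposite order in the lines. With AG-205 the ratio was 0.442 to 0.452 in HEC-1A, and for T-HESC it was 4.52 to 7.74, in both lines below every DMSO library of the line. This ratio was chosen after the values were seen and is given as a description.

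PGRMC2 ranged from 41.6 to 45.2 CPM in HEC-1A and from 100.4 to 214 CPM in T-HESC with DMSO (log2 fold change 1.97, SE 0.255, adjusted p = 0.000127 by edgeR). CYB5A was lower in T-HESC, at 21.9 to 28.5 CPM against 43.4 to 49.1 CPM (log2 fold change -0.86, SE 0.125, adjusted p = 0.000264 by edgeR). CYB5D2 was higher in T-HESC (log2 fold change 0.51, SE 0.152, adjusted p = 0.0144 by edgeR), as was PGRMC1 by a smaller amount (0.28, SE 0.0885, adjusted p = 0.019 by edgeR). These smaller differences depended on the scaling: with upper-quartile scaling, PGRMC1 (0.12, adjusted p = 0.218 by edgeR) and CYB5D2 (0.36, adjusted p = 0.073 by edgeR) did not pass and CYB5B did (-0.30, adjusted p = 0.0418 by edgeR). PGRMC1 also lost its call when any single HEC-1A DMSO library was left out, with an adjusted p between 0.0687 and 0.0825 in edgeR's test, and CYB5D2 lost its call without HEC-1A DMSO replicate 1 (adjusted p = 0.0641 by edgeR).

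NENF (log2 fold change 0.18, SE 0.153, 95% interval -0.17 to 0.53, adjusted p = 0.306 by edgeR) and CYB5B (-0.14, SE 0.122, 95% interval -0.42 to 0.14, adjusted p = 0.319 by edgeR) did not pass between the lines. Without T-HESC DMSO replicate 3, NENF passed (0.31, adjusted p = 0.0298 by edgeR). In the AG-205 libraries of the lines, a comparison added after seeing the data in which 51.4% of all genes passed, CYB5R3 (2.11), PGRMC2 (1.40) and PGRMC1 (0.63) were higher in T-HESC and POR (-1.62) lower. CYB5A (-0.72, 95% interval -1.45 to -0.00, adjusted p = 0.0877 by edgeR) and CYB5D2 (0.08, 95% interval -0.44 to 0.60, adjusted p = 0.787 by edgeR) did not pass there.

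**Figure D3:**
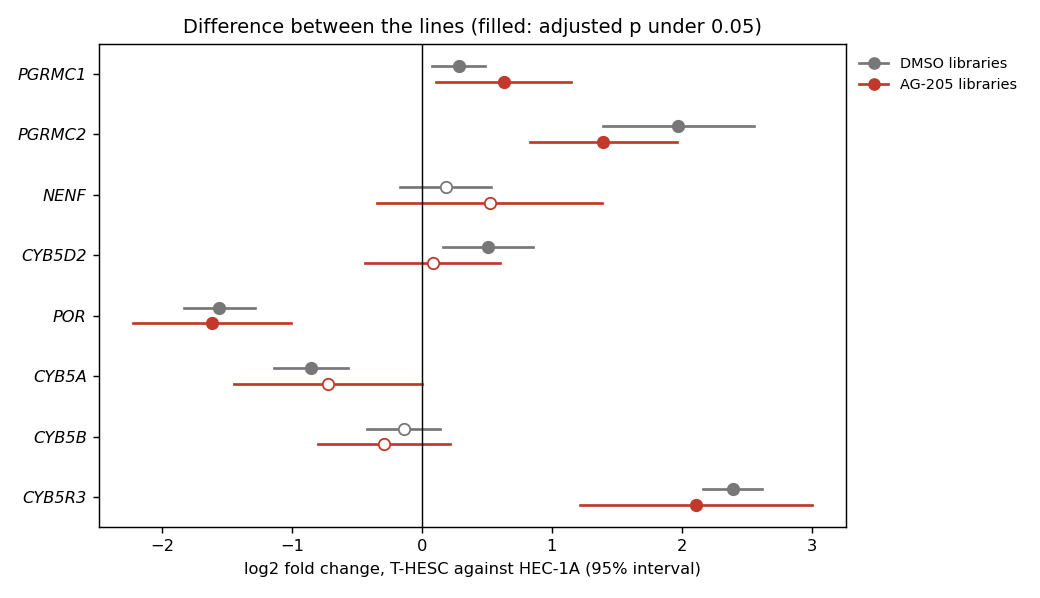
Log2 fold change of each of the 8 genes in T-HESC against HEC-1A (horizontal axis) with its 95% interval, in the DMSO libraries (grey) and the AG-205 libraries (red). Filled symbols passed at an adjusted p under 0.05. CYB5R3 (2.39 and 2.11) and PGRMC2 (1.97 and 1.40) lie to the right and POR (-1.56 and -1.62) to the left in both.

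Ordered by level per kilobase of the canonical transcript, POR was highest in HEC-1A with DMSO at 91.9 ± 4.56 CPM per kilobase (mean ± SD, n = 3), followed by PGRMC1 at 72.7 ± 0.14 and CYB5R3 at 54.4 ± 1.81. NENF (30.8 ± 4.38) and CYB5B (25.7 ± 1.24) came next with overlapping libraries, then PGRMC2 (15.6 ± 0.674) and CYB5A (14.2 ± 0.899), which also overlapped, and last CYB5D2 (6.93 ± 0.495). In T-HESC with DMSO the order began with CYB5R3 at 288 ± 24.3 CPM per kilobase, then PGRMC1 (89.0 ± 6.80) and PGRMC2 (61.6 ± 22.2). NENF (35.2 ± 5.54) overlapped both PGRMC2 above it and POR (31.3 ± 4.50) below it, and was followed by CYB5B (23.5 ± 3.56). CYB5D2 (9.93 ± 1.57) and CYB5A (7.89 ± 1.04) were lowest and overlapped. The order depended on the length used: per kilobase of all annotated exons, PGRMC1 (71.2) led POR (36.1) in HEC-1A, and PGRMC1 (87.2) and CYB5R3 (80.3) led in T-HESC. The exons annotated to POR add up to 6222 bases against 2446 in its canonical transcript, and those of PGRMC1 to 1919 against 1879.

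Within the MAPR family, PGRMC1 made up 56.3% to 59.5% of the summed level per kilobase of canonical transcript in HEC-1A with DMSO, and 39.9% to 55.5% in T-HESC with DMSO. PGRMC2 made up 12.3% ± 0.874 and 30.9% ± 8.61 (SD, n = 3), with no overlap between the lines. CYB5D2 made up 4.95% to 5.83% in HEC-1A with DMSO and 6.83% to 7.35% with AG-205, while the PGRMC1 share was 52.6% to 60.0% with AG-205. The T-HESC DMSO library with the high PGRMC1 share, replicate 3, was that with the low PGRMC2 level.

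**Figure D4:**
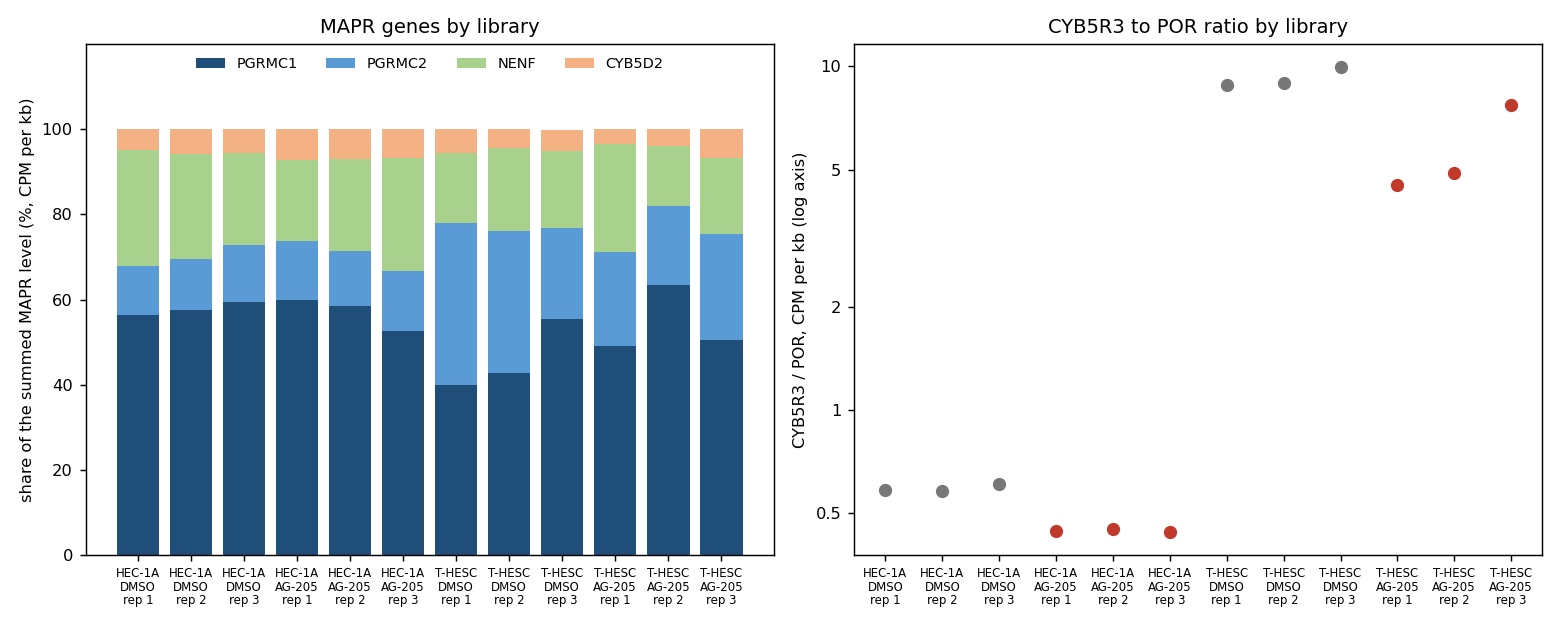
Left, share of each MAPR gene in the summed MAPR level of every library (vertical axis, percent of CPM per kilobase of canonical transcript). Right, ratio of CYB5R3 to POR on the same scale in every library (log axis, DMSO in grey and AG-205 in red). The PGRMC2 share is larger in T-HESC than in HEC-1A with DMSO, and the ratio runs from 0.442 to 0.608 in the 6 HEC-1A libraries and from 4.52 to 9.94 in the 6 of T-HESC.

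The 8 genes did not share a single pattern over the 12 libraries. With each gene centred on its own mean, the root mean square difference of log2 CPM was smallest between PGRMC1 and NENF (0.329) and between PGRMC1 and CYB5D2 (0.339), and largest between POR and CYB5R3 (1.93). Among 9945 genes with a mean of at least 10 CPM, the genes nearest to PGRMC1 were UBE2D3, PRKAR1A and DNAJC21, at 0.107 to 0.121 where the median gene was at 0.554. Among those nearest to POR were RNF187 (0.141) and PCYOX1L (0.177, median 1.00), and those nearest to CYB5R3 were CRAT, CD99L2 and TRIM8 (0.114 to 0.139, median 1.21). ZBTB18, MMP24OS and P4HA1 were nearest to PGRMC2 (0.191 to 0.219), SACM1L, ARHGAP12 and MASTL to CYB5B (0.140 to 0.173), STK19, CHFR and MOSPD3 to CYB5D2 (0.125 to 0.155), and PDRG1, BUD23 and PRPF31 to CYB5A (0.118 to 0.123). RMI2 (0.0872), ENSG00000196656 (0.12) and COX8A (0.125) were nearest to NENF. These likenesses rest on 12 libraries that share the difference between the lines.

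The genes around this system were read from lists of relatives, acceptors and partners, chosen with earlier results of these data known. Beside the counts below, 11.6% of all genes tested passed in HEC-1A, 7.35% as higher, and 0.08% passed in T-HESC. The list of enzymes that take electrons from POR or cytochrome b5 leaves most P450 enzymes to a list of their own. In HEC-1A, 7 of the 10 tested passed as higher and none as lower, with a median log2 fold change of 1.76. The list holds enzymes of cholesterol synthesis, which the study reported as raised in these samples, so the count is not independent evidence. SCD, the desaturase that makes monounsaturated fatty acids, rose by 4.57 on the log2 scale (SE 0.143, adjusted p = 2.23e-09 by edgeR), MSMO1, a sterol methyl oxidase, by 2.63 (SE 0.116), DHCR7, the last reductase of cholesterol synthesis, by 2.14 (SE 0.104) and SQLE, squalene epoxidase, by 1.67 (SE 0.0869). CYP51A1, the P450 of cholesterol synthesis, which was named outside the rule after its values were seen, rose by 1.85 (SE 0.202, adjusted p = 8.37e-05 by edgeR). Of the 10 tested in T-HESC, 2 passed, SQLE (2.48, SE 0.240, adjusted p = 0.026 by edgeR) and MSMO1 (3.30, SE 0.348, adjusted p = 0.0336 by edgeR), and 6 did without AG-205 replicate 1. When AG-205 replicate 2 was left out, or any 1 of the DMSO libraries, 0 of the 10 passed, with an adjusted p from 0.133 to 0.417 for SQLE and from 0.144 to 0.417 for MSMO1 in edgeR's test, and without AG-205 replicate 3 only MSMO1 did. The log2 fold changes stayed between 2.31 and 2.55 for SQLE and between 3.12 and 3.56 for MSMO1. MSMO1 was picked by the study from these samples and is not independent evidence of its direction. In HEC-1A these log2 fold changes were larger than those of POR (0.49) and CYB5B (0.53).

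Other proteins with a cytochrome b5 domain and other cytochrome b5 reductases gave 3 higher and 1 lower of 8 tested in HEC-1A, with a median log2 fold change of 0.277. The higher ones were the fatty acid desaturases FADS1 (0.72, SE 0.0860, adjusted p = 0.000175 by edgeR), FADS2 (0.64, SE 0.105, adjusted p = 0.00191 by edgeR) and FADS3 (0.41, SE 0.0976, adjusted p = 0.0178 by edgeR), and the lower one was CYB5RL, a reductase relative (-0.54, SE 0.162, adjusted p = 0.0479 by edgeR). The call of CYB5RL was lost without AG-205 replicate 2 or any 1 of the DMSO libraries (adjusted p 0.1 to 0.171 by edgeR), with upper-quartile scaling (0.0507) and with the replicate block (0.0504), and that of FADS3 without AG-205 replicate 1 or any 1 of the DMSO libraries (0.0652 to 0.103). In T-HESC none of 8 passed, with FADS1 at 1.45 (SE 0.398) and FADS2 at 1.72 (SE 0.413), and both passed without AG-205 replicate 1 (1.77 and 2.08, adjusted p = 0.0316 and 0.00491 by edgeR). The remaining P450 electron donors and diflavin reductases (NDOR1, MTRR, FDXR and FDX1) gave 0 of 4 in each line, with log2 fold changes from -0.31 to -0.11 in HEC-1A. Without HEC-1A AG-205 replicate 3, where 4014 of all 14461 genes passed, 2 of them passed in HEC-1A. With library quality weights, where 3718 of all 14122 genes passed, 1 did.

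Of 32 listed P450 enzymes of the endoplasmic reticulum, only 13 were abundant enough to test in HEC-1A and 7 in T-HESC. In HEC-1A, 3 rose: CYP4F3, a fatty acid hydroxylase, from 4.08 ± 0.469 to 12.0 ± 2.57 CPM (SD, n = 3, log2 fold change 1.58, SE 0.185, adjusted p = 0.000162 by edgeR), and CYP1A1 and CYP1B1, which metabolise aromatic hydrocarbons, from 6.12 ± 1.17 to 11.1 ± 0.84 CPM (0.86, SE 0.166, adjusted p = 0.0059 by edgeR) and from 0.974 ± 0.519 to 2.57 ± 0.527 CPM (1.36, SE 0.363, adjusted p = 0.0304 by edgeR). CYP1B1 had 5 to 37 counts per HEC-1A library, and its call was lost without DMSO replicate 1 (0.99, adjusted p = 0.112 by edgeR), DMSO replicate 3 (adjusted p = 0.091) or AG-205 replicate 2 (adjusted p = 0.0817). In T-HESC none of the 7 passed and these 3 had at most 1 count per library. Of 6 listed mitochondrial P450 enzymes, which do not use POR, 2 were tested and 0 passed in either line. Between the lines with DMSO, 10 of the 13 endoplasmic reticulum P450 enzymes tested were lower in T-HESC and 3 higher, against 36.0% and 36.1% of all genes. A gene could pass the count filter through 1 line alone, which fixes its direction, so these counts do not measure a difference of the group. With DMSO, CYP4F11 had a mean of 185 CPM in HEC-1A and 0.261 CPM in T-HESC, and CYP1A1 had 6.12 and 0 CPM.

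Among genes of heme synthesis, transport and breakdown, 2 rose and 2 fell of 14 tested in HEC-1A, with a median log2 fold change of -0.05, where 11.6% of all genes passed. HMOX1, the heme oxygenase that takes electrons from POR, rose by 1.22 (SE 0.148, adjusted p = 0.000215 by edgeR) and the heme exporter FLVCR1 by 0.78 (SE 0.0968, adjusted p = 0.000241 by edgeR). The heme transporter SLC48A1 fell by 0.44 (SE 0.0979, adjusted p = 0.0121 by edgeR), a call lost without AG-205 replicate 2 or any 1 of the DMSO libraries (adjusted p 0.053 to 0.0661). FECH, the last enzyme of heme synthesis and a reported partner of PGRMC1, was at -0.19 on the log2 scale (SE 0.0989, adjusted p = 0.238 by edgeR). None of 15 passed in T-HESC, where HMOX1 stood at 1.43 (SE 0.379, adjusted p = 0.45 by edgeR). With all 12 libraries fitted together, 0 of the list passed in HEC-1A, where 154 of all 16132 genes did. HMOX1 had an adjusted p of 0.146 and FLVCR1 one of 0.266 in edgeR's test. That fit called 2 of the list in T-HESC, HMOX1 among them (adjusted p = 0.0441 by edgeR).

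Among 8 genes for reported protein partners of PGRMC1, 3 rose and 1 fell in HEC-1A, with a median log2 fold change of -0.165. INSIG1, which retains the sterol sensor in the endoplasmic reticulum, rose by 3.22 (SE 0.116, adjusted p = 4.11e-09 by edgeR) and the sigma-2 receptor TMEM97 by 1.58 (SE 0.0876, adjusted p = 1.49e-07 by edgeR). SERBP1, an RNA-binding partner, fell by 0.36 (SE 0.0942, adjusted p = 0.0266 by edgeR), a call lost in 5 of the 6 fits without 1 library, all but that without AG-205 replicate 3 (adjusted p 0.0711 to 0.149). In T-HESC INSIG1 passed (3.13, SE 0.304, adjusted p = 0.026 by edgeR), and TMEM97 (1.68 with all libraries) passed without AG-205 replicate 1. INSIG1 lost its call without AG-205 replicate 2 or any 1 of the DMSO libraries (adjusted p 0.133 to 0.417 by edgeR), with log2 fold changes of 2.94 to 3.33. INSIG1 was picked by the study from these samples.

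**Figure D5:**
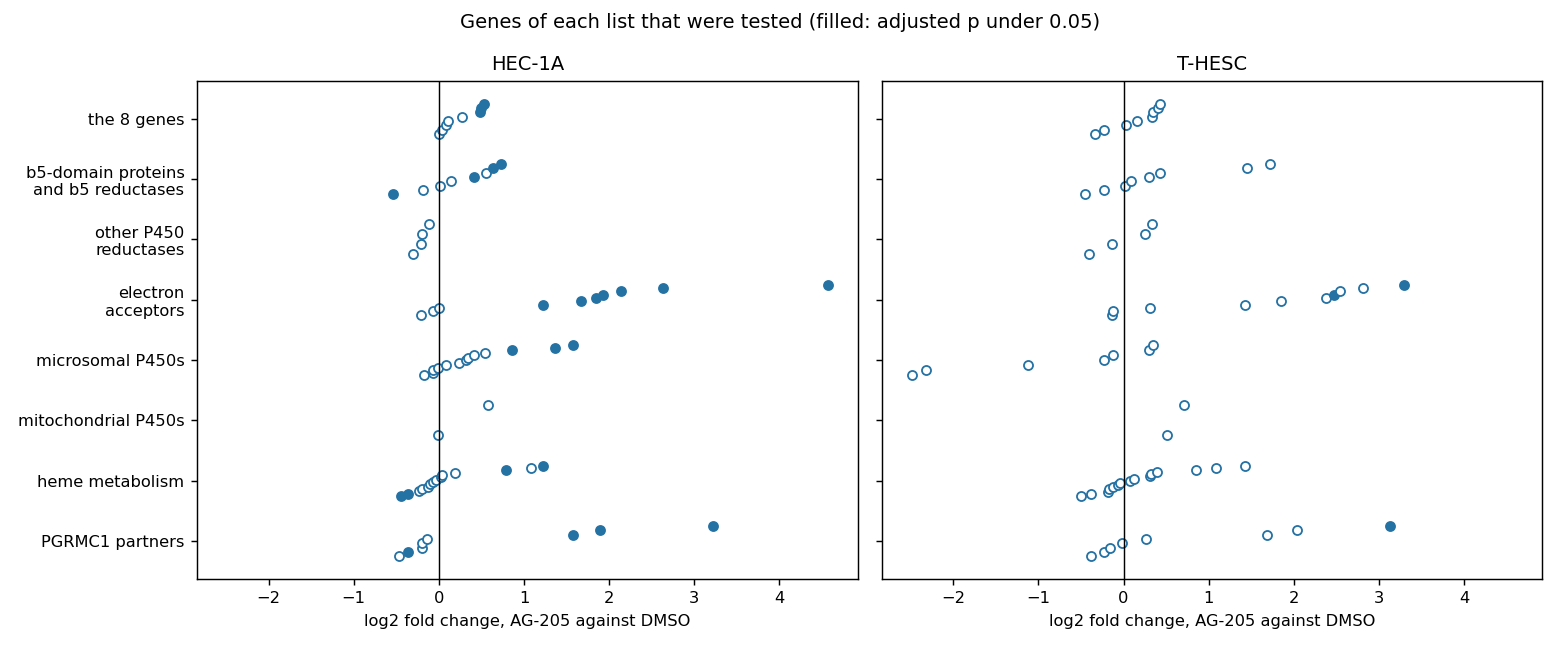
Log2 fold change with AG-205 (horizontal axis) of every tested gene of the 8 genes and of the related lists (rows), in HEC-1A (left) and T-HESC (right). Filled points passed at an adjusted p under 0.05. In HEC-1A the electron acceptors reach 4.57 while the 8 genes lie between -0.00 and 0.53.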

How the data were processed

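RNA of 12 cultures was sequenced as pairs of reads after polyA selection. The authors used Trimmomatic 0.38 for trimming and HISAT2 2.1.0 for alignment to GRCh38, and counted them per Ensembl gene with featureCounts (Subread 2.0.0). The deposited values are raw counts per gene and library, without normalization, for 58735 genes, of which 23756 had no count in any library. The handling of strand and of reads with several matches is not given in the sources used here. All columns were matched to the labels.

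The counts were tested in edgeR 4.0.16 under R 4.3.3 (TMM scaling, filterByExpr, quasi-likelihood test, Benjamini-Hochberg adjustment over all genes tested): AG-205 against DMSO in each line, the interaction and the effect with line as a term over 12 libraries, and T-HESC against HEC-1A with DMSO. Passing means an adjusted p under 0.05, and 95% intervals come from the test's SE. CPM in the text use TMM factors over all 12 libraries. No 2 libraries were copies. For a single gene, exact permutation of 3 against 3 libraries reaches no p below 0.1. The procedure was tested on simulated counts.

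Alternatives were DESeq2 1.42.0, RLE and upper-quartile scaling, all genes with a count, genes with a mean of 1 CPM or more, the replicate block, a threshold of 0.01, the fold limit, library quality weights (limma 3.58.1), a fit of all 12 libraries and leaving out each library. The AG-205 libraries in place of DMSO for the line comparison were added after seeing the data.

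The 8 genes, the related lists and the marker lists were chosen with earlier results of these data known. The text names all 8 genes, up to 4 genes of each list with the smallest p among those that passed in either line, and the 3 genes nearest to each of the 8 in root mean square difference of centred log2 CPM (prior count 2). A few genes that this rule picks are counted with their lists but not reported here by name. Other genes were named after their values were seen. Gene models came from GENCODE 44 and promoter windows from RefSeq (GRCh38.p14). Python 3.11.15 and matplotlib 3.10.9 drew the plots.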

Additional observations from a re-analysis of the deposited data

How the results depend on the processing

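In HEC-1A, 3 of the 8 genes passed under DESeq2, both other scalings, both other filters, the replicate block and library quality weights, 2 at an adjusted p under 0.01, 0 beyond the fold limit and 0 when all 12 libraries were fitted together. Leaving out single libraries gave 1 to 3. Of all genes in HEC-1A, 689 passed at 0.01, 393 beyond the fold limit and 154 of 16132 in the fit of all 12 libraries. With single libraries left out, the count of all genes ran from 678 of 14525 (without DMSO replicate 3) to 4014 of 14461 (without AG-205 replicate 3). Between the lines with DMSO, 6 of the 8 passed, 3 beyond the fold limit, 5 with upper-quartile scaling, 4 in the AG-205 libraries and 4 to 7 with single libraries left out. Over both lines 0 passed, 1 with DESeq2, 3 with library quality weights (CYB5D2, POR and CYB5B) and 0 to 2 with single libraries left out. Of all genes over both lines, 238 of 15654 passed in edgeR, 2228 with library quality weights and 657 of 16654 with DESeq2. In HEC-1A, 3718 of all 14122 genes passed with library quality weights, against 1643 in edgeR. More genes of the related lists passed in HEC-1A without AG-205 replicate 3. These were 8 electron acceptors, 6 cytochrome b5 relatives, 6 endoplasmic reticulum P450 enzymes, 6 heme genes and 6 PGRMC1 partners. In T-HESC and for the difference between the lines, 0 of the 8 passed under every alternative run. The cause of these shifts was not tested.

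The count of all genes that passed in T-HESC moved more: 11 in edgeR, 118 in DESeq2, 181 without a filter, 450 with library quality weights, 206 with all 12 libraries fitted together and 0 to 72 with single libraries left out (72 when AG-205 replicate 1 was left out, and 0 when it was AG-205 replicate 2 or a DMSO library, where 404 to 685 genes had an unadjusted p under 0.05).

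Some log2 fold changes changed sign, including those of NENF (0.33) and CYB5A (0.15) in T-HESC and the difference between the lines for NENF (0.33), as well as values near 0. With upper-quartile scaling, NENF was at 0.016 in HEC-1A, and CYB5D2 at -0.0146 and CYB5RL at -0.0278 in T-HESC. NENF was at 0.0103 in HEC-1A with all 12 libraries fitted together, and CYB5RL at -0.0037 in T-HESC without a filter. With library quality weights, CYB5A was at -0.0691 in HEC-1A, and NENF at -0.28, CYB5D2 at -0.17, CYB5A at -0.34, CYB5RL at -0.0315 and SLC48A1 at 0.0053 in T-HESC. With those weights the differences between the lines were -0.14 for NENF, -0.24 for CYB5A and 0.0505 for CYB5B, and the effects over both lines were 0.0518 for PGRMC2, -0.105 for NENF, -0.0727 for CYB5A and 0.0861 for CYB5R3.

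With single libraries left out, the ranges that included both signs were, in HEC-1A, -0.22 to 0.14 for NENF and -0.13 to 0.12 for CYB5A, and in T-HESC -0.20 to 0.53 for NENF, -0.11 to 0.16 for CYB5D2, -0.25 to 0.32 for CYB5A, -0.66 to 0.0775 for CYB5R3, -0.0594 to 0.12 for CYB5RL and -0.31 to 0.006 for SLC48A1. For the difference between the lines they were -0.18 to 0.54 for NENF, -0.19 to 0.15 for POR, -0.26 to 0.30 for CYB5A and -0.73 to 0.0214 for CYB5R3. Over both lines they were -0.13 to 0.0932 for PGRMC2, -0.0729 to 0.26 for NENF, -0.0753 to 0.17 for CYB5A and -0.24 to 0.0944 for CYB5R3, and between the lines with DMSO -0.19 to 0.0073 for CYB5B.

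Same-numbered libraries deviated from their group means with correlations of -0.0715, 0.235 and -0.00033 in HEC-1A and 0.2, -0.493 and -0.0264 in T-HESC, so the numbers were not taken to pair the samples. With the replicate block, 3 of the 8 genes passed in HEC-1A, 0 in T-HESC, 0 for the difference between the lines, 6 between the lines with DMSO and 0 over both lines, as without it, and the genes passing over both lines went from 238 to 114 of all tested. The counts of all genes that passed were 1503 with the block and 1643 without in HEC-1A, and 0 and 28 for the difference between the lines.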
